A study of Mus musculus with 22 samples.

Results

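The genes described here are 10 genes of glutathione synthesis and antioxidant defence, Nfe2l2, Gclc, Gclm, Gpx1, Gpx4, Sod1, Sod2, Hmox1, Prdx1 and G6pdx, chosen by gene symbol from the 23453 genes of the count table. RNA was sequenced from 22 single astrocytes of primary cultures, each made from the cerebral cortex of a single C57BL/6 mouse pup aged P0 to P1. During imaging of a fluorescent calcium indicator every cell was given EtOH acutely and ATP at the end, and it was then classed by its calcium signal as S-type (sustained, 6 cells), T-type (transient, 6 cells), M-type (a mixture of signals, 5 cells) or no response (NR, 5 cells). The cultures had been shaken and treated with cytosine arabinoside to remove other cell types, and serum was withdrawn before imaging, so that all 4 types share these steps and also the EtOH. The NR cells are therefore cells that did not signal, not cells without EtOH. Neither the labels nor the methods name the pup or culture of a cell, so a type is treated as a single sample and differences between types carry no test. Cells are called by the names of their libraries.

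Cells remove reactive oxygen through linked steps. Superoxide dismutases turn superoxide into hydrogen peroxide, which glutathione peroxidases and peroxiredoxins reduce with electrons that come from glutathione and thioredoxin and, in the end, from NADPH. The transcription factor Nrf2, the product of Nfe2l2, is held in the cytoplasm and degraded until oxidants or electrophiles release it, and it then binds the antioxidant response element of genes such as Gclm, Hmox1 and Prdx1. Astrocytes are known as the cells that make and export glutathione in the brain, on which neurons depend for the precursors of their own.

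The antioxidant response element has the core letters TGACNNNGC, and it is shown here for the genes that hold it next to their start, since it is the sequence Nrf2 is known to bind. Of the 10 genes, 8 had at least 1 promoter window in the RefSeq table for GRCm38.p6, each covering 250 bases before to 50 bases after a start. These letters, searched on both strands, stood in a window of 5 of the 8 (Nfe2l2, Gclm, Prdx1, Sod1 and G6pdx), against 14.0% of the 27025 genes of that table and 12.4% of its 32851 windows. The windows of Gpx1, Gpx4 and Sod2 did not hold them, and Gclc and Hmox1 had no window. The 29 bases around each match follow, with the matched letters in capitals. Positions count from the RefSeq start.
Nfe2l2: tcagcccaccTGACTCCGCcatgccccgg
Gclm: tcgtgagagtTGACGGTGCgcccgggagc
Prdx1: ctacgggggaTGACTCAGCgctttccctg
Sod1: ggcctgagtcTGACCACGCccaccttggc
G6pdx: gcgtgtgcttTGACTGAGCtgacccgcct
They lie at chr2:75704885-75704913 (minus strand, match from -240 to -232), chr3:122245413-122245441 (minus strand, -134 to -126), chr4:116685456-116685484 (minus strand, -133 to -125), chr16:90220696-90220724 (minus strand, -56 to -48) and chrX:74428919-74428947 (plus strand, -57 to -49). The strand given is that of the printed letters, and outside Nfe2l2 the match is on the strand opposite to the gene. A match of letters is a description of the sequence. Whether Nrf2 bound there was not measured.

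A cell had between 2937786 and 22131076 reads on genes, with a median of 16965582, and between 6319 and 13070 genes with a read. Of 12 astrocyte markers, 10 were read in 22 of 22 cells, Aldoc in 21 and S100b in 16. Their summed share of the reads lay between 0.487% and 1.73% in S-type cells, between 0.824% and 2.23% in T-type cells, between 1.18% and 2.41% in M-type cells and between 0.538% and 2.31% in NR cells. Single markers differed between the types, in both directions. The level of Gfap was 254 in the T-type and 3056 in NR, that of Slc1a2 298 and 10271, and that of S100b 45.1 and 1567. The other way went Sox9, with 23782 in the T-type and 5697 in NR, Glul (13739 and 6298) and Vim (206056 and 83941). Slc1a3 (20006 and 12182) and Fabp7 (20496 and 13669) were also higher in the T-type. Among markers of other cells, the summed share in a cell reached 0.741% for 7 genes of mural cells and fibroblasts, 0.333% for 8 of the oligodendrocyte lineage, 0.205% for 6 of neurons, 0.0200% for 5 of endothelium and 0.0044% for 9 of microglia. The genes Acta2 and Olig1 were read in 22 cells, Olig2 in 21, Stmn2 in 20 and Col1a2 in 19, while Sox10, Cldn5, Cdh5 and Rgs5 were at 0 reads. The part of such reads in the results was not tested. T-type cells J162_16 and J163_18 stood apart: their size factors, which scale the counts of a cell to those of the others, were 0.276 and 0.183, against 0.548 to 2.31 in the remaining cells, J162_16 had the fewest genes with a read and J163_18 the fewest reads. S-type cells J150_3 and J151_5 had the largest shares of reads on G2/M genes (0.731% and 0.423%).

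A normalized count is the count of a gene in a cell divided by the size factor of that cell, and the mean of this value over the cells of a type is called the level of the gene there. The 10 genes took between 0.172% and 0.601% of the reads of a cell, with a median of 0.317%. The highest share was that of J162_16 and the next that of J150_3 with 0.558%. Each gene was read in 22 of 22 cells except Hmox1, which was read in 21. By level over all 22 cells, Prdx1 ranked 81st and Sod1 116th of all genes, and Hmox1, Gpx4 and G6pdx ranked from 3643rd to 4108th. Per kilobase of the principal transcript, the level over all cells was 22664 for Sod1, 7747 for Prdx1, 2951 for Gpx1, 1757 for Nfe2l2, 844 for Gclc, 744 for Gpx4, 649.7 for Gclm, 460.4 for Hmox1, 375 for Sod2 and 227 for G6pdx. Per kilobase of all annotated exons, Prdx1 (5839.9) came before Sod1 (3659), since the annotation gives Sod1 641 bases in the principal transcript and 3970 in all exons.

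**Figure D1:**
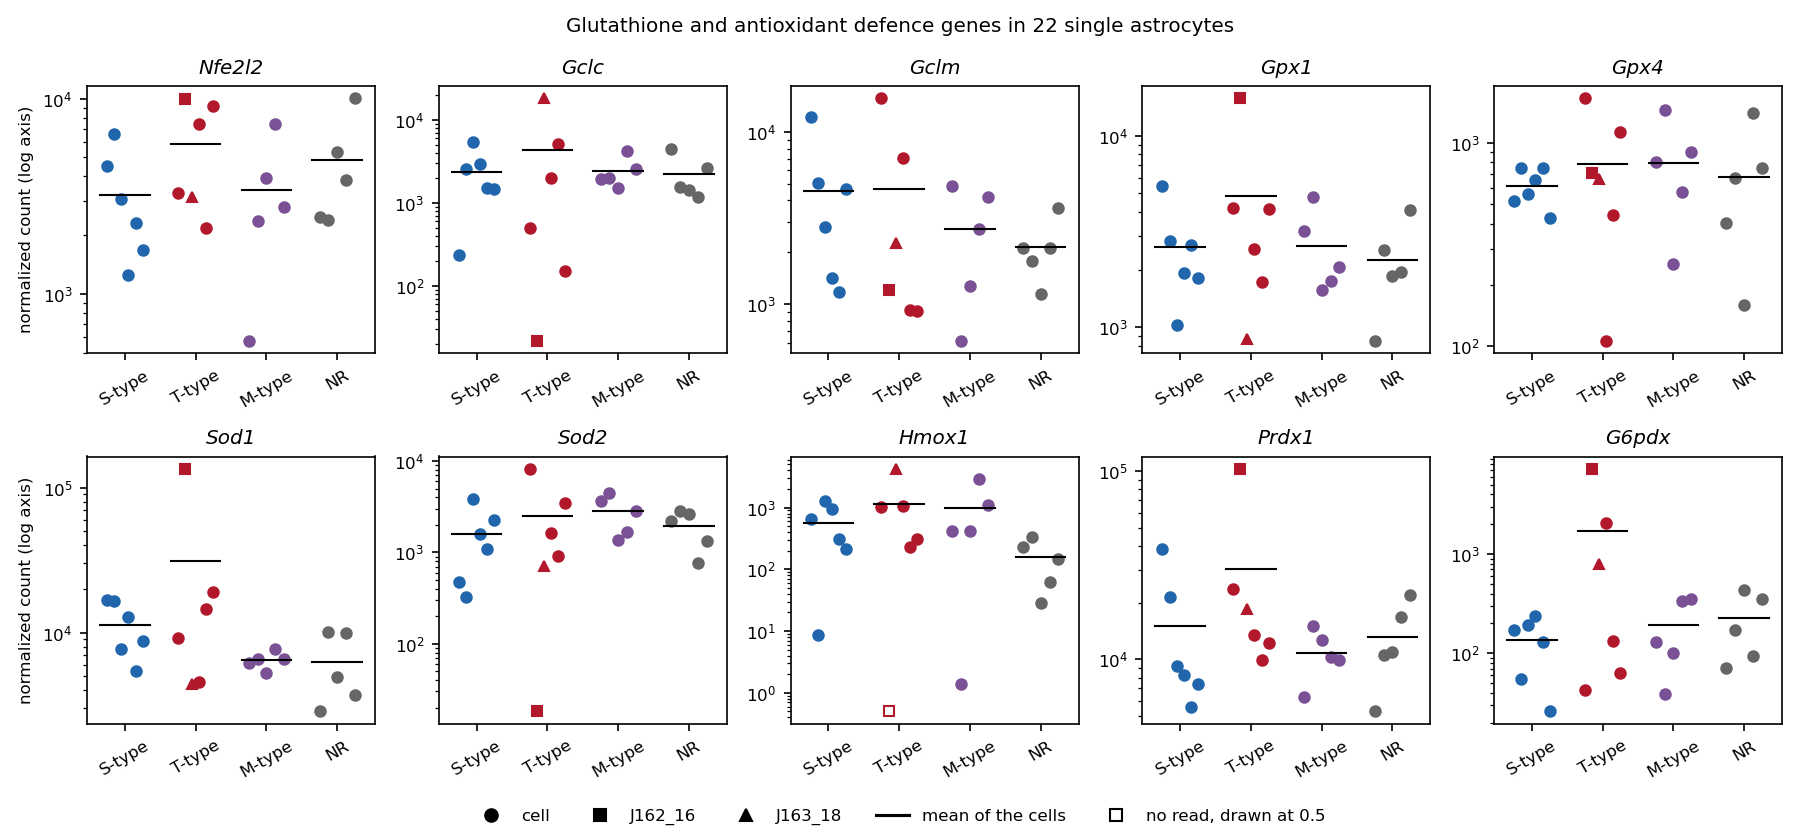
Normalized count (log axis) of each of the 10 genes in every cell, by response type, with a black line at the mean of the cells; squares mark J162_16 and triangles J163_18, and an open square is a cell without a read. In each of the 4 comparisons the cells of both types overlapped for all 10 genes. In the T-type J162_16 is the highest cell for Sod1, Prdx1, Gpx1, G6pdx and Nfe2l2 and the lowest for Gclc, Sod2 and Hmox1.

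The comparison of T-type with NR cells asks how transient responders differed from cells that did not signal. All 10 genes had a higher mean level in the T-type, as had 6209 of the 12695 genes compared. Among genes whose mean level over all cells reached 100, 4539 of 8497 were higher. Of the 10 genes, however, 5 turned below 0 in 1 or more alternatives: Gclc (down to -1.25), Sod2 (-0.94), Gpx4 (-0.31), Gclm (-0.28) and Nfe2l2 (-0.07). With medians of the cells, Gclc, Gclm and Sod2 lay below 0. Under mean CPM (counts divided by the total of the cell), Nfe2l2, Sod2 and Gpx4 did. The median log2 ratio was 1.11, where the median over the 12695 genes compared was -0.05. At least 2-fold higher were 6 of the 10 genes (Gclm, Gpx1, Sod1, Hmox1, Prdx1 and G6pdx), against 28.7% of all genes, and 0 were at least 2-fold lower, against 32.5%. Without J162_16 the number was 4 of 10, against 25.9% of all genes, with 0 lower against 32.4%, and the median was 0.67. The 4 were Gclc, Gclm, Hmox1 and G6pdx. Under mean CPM the median over all genes moved to -0.45 and that of the 10 genes to 0.45, so that relative to all genes the 10 lay 0.90 higher in place of 1.17. The mean level over all cells reached 100 in 8497 genes, the 10 among them. Of these 8497, 29.6% were at least 2-fold higher and 25.0% lower, with a median log2 ratio of 0.15.

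Between the T-type and the S-type, transient against sustained responders, the mean level of all 10 genes was again higher in the T-type. So was that of 6138 of the 12698 genes compared, and of 4506 of the 8497 whose mean level over all cells reached 100. Of the 10 genes, however, 7 turned below 0 in 1 or more alternatives: Gclm (in 10 of 23, down to -1.10), Gclc (-1.01), Hmox1 (-0.42), Sod2 (-0.34), Gpx4 (-0.19), Sod1 (-0.13) and Prdx1 (-0.02). The median log2 ratio was 0.88, against -0.07 over 12698 genes. At least 2-fold higher were 4 of 10 (Sod1, Hmox1, Prdx1 and G6pdx), against 26.0% of all genes, and 0 were lower, against 32.3%. The ratios of Hmox1 (1.02) and Prdx1 (1.00) lay at the limit, and without the S-type cell J155_9 or J156_16 the number was 2. Without J162_16, 3 of 10 were higher against 22.9% of all genes, 0 were lower against 32.8%, Sod1 turned to -0.13, and the median was 0.51. Mean CPM gave a median of 0.21 against -0.45 over all genes, which is 0.66 above them in place of 0.95. Of the 8497 genes whose mean level reached 100, 26.4% were higher and 24.7% lower, with a median log2 ratio of 0.12.

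Fewer of the 10 genes reached 2-fold in the S-type and the M-type. In S-type against NR, 2 of 10 genes were at least 2-fold higher (Gclm and Hmox1), against 25.1% of all genes, and 0 lower, against 22.4%, with a median log2 ratio of 0.14 (0.03 over all genes). In M-type against NR, only Hmox1 was higher, 1 of 10 against 19.8% of all genes, and 0 were lower, against 28.1%, with a median of 0.18 (-0.20 over all genes). Among genes whose mean level reached 100, 20.9% were higher and 18.1% lower in the S-type. In the M-type these shares were 15.9% and 22.1%. The comparisons with NR share the NR cells, and those with the T-type share the T-type cells, so their values are not independent of each other. In all 4 comparisons, 0 of the 10 genes had the cells of both types apart, without overlap, together with a 2-fold ratio; over all genes that share was 0.772% between the T-type and the S-type, and 0.977%, 0.401% and 0.59% for NR against the T-type, S-type and M-type.

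**Figure D2:**
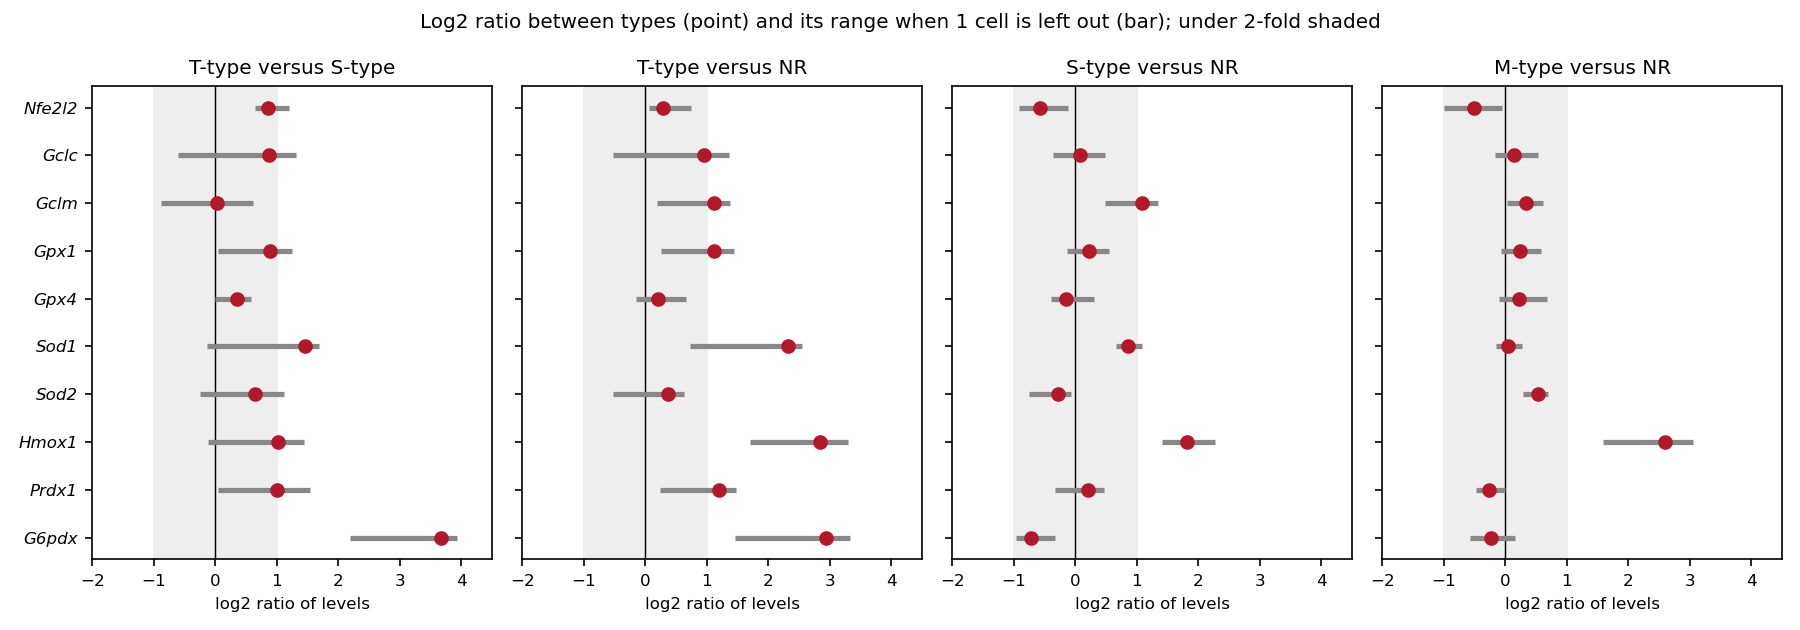
Log2 ratio of the levels of 2 types (x axis) for each gene, as a point, with a bar from the lowest to the highest value when 1 cell is left out; ratios under 2-fold are shaded. Hmox1 lies outside the shaded band, bar included, in all 3 comparisons with NR, and G6pdx in both comparisons of the T-type, while the bars of Sod1, Gpx1, Gclc and Sod2 in the T-type reach towards or below 0.

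Hmox1 (chr8:75093621-75100589, plus strand) encodes heme oxygenase-1, which breaks down heme and is a classical Nrf2 target. Its level was lowest in NR and higher in each responding type. The normalized counts of the 5 NR cells were 28.8, 61.6, 146, 230.1 and 330.1. In the M-type they were 1.40, 414, 419.8, 1094 and 2907. The S-type ran from 8.67 through a median of 479 to 1275, and the T-type from 0 through 664 to 4271. Above the highest NR cell lay 4 of 5 M-type, 3 of 6 S-type and 3 of 6 T-type cells, but 1 cell of each type lay under the lowest: J151_5 with 8 reads, J162_16 with 0 and J173_25 with 2. The levels were 1146 in the T-type, 967 in the M-type, 564 in the S-type and 159 in NR, with an SD over cells of 1590.2, 1153, 478 and 123. These gave log2 ratios to NR of 2.85 (95% counting interval 2.75 to 2.94), 2.60 (2.52 to 2.69) and 1.82 (1.73 to 1.91). Leaving out the cell that mattered most gave 1.71 without J163_18, 1.60 without J175_18 and 1.41 without J153_6. The order of the 3 responding types was not stable: T-type versus S-type was 1.02, and -0.12 without J163_18. Microglia can also express Hmox1. Their 9 genes took from 6.6e-06% to 0.0044% of the reads in NR cells and at most 0.000508% in a cell of the other types, and their part in the Hmox1 counts was not tested.

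G6pdx (chrX:74409483-74429194, minus strand) encodes glucose-6-phosphate dehydrogenase, the entry enzyme of the pentose phosphate pathway and a source of NADPH. The NR cells had normalized counts of 71.6, 93.3, 171, 349 and 439, and the M-type cells 39.2, 100.3, 129, 334 and 356. S-type cells ran from 26.0 through 149.5 to 240.01, and the T-type from 42.2 through 459 to 7260.5. The T-type fell into 3 cells above each of the 16 cells of other types (J162_16 with 7260.5, J164_19 with 2070.4 and J163_18 with 785) and 3 cells within their range (133.5, 62.8 and 42.2). The same 3 T-type cells were above the 16 others in CPM, at 159, 172.8 and 49.0 against a highest value of 40.5 elsewhere. Of these 3 cells, J162_16 and J163_18 had the smallest size factors of all cells, 0.276 and 0.183. With both set aside, J164_19 was the only T-type cell above the cells of the other types. The levels were 1726 in the T-type, 225 in NR, 192 in the M-type and 136 in the S-type, and neighbours among the latter 3 differed by less than the spread over their cells (SD 161.8, 144 and 82.6). The log2 ratio of the T-type was 3.67 to the S-type (95% counting interval 3.57 to 3.77) and 2.94 to NR (2.85 to 3.03). Without J162_16 the ratios were 2.19 and 1.46.

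Ikbkg lies on the opposite strand and shares 418 of the 3080 exon bases of G6pdx, and the sources do not say whether reads were counted by strand. Its normalized counts in the 3 T-type cells high for G6pdx were 2608 in J162_16, 2552 in J164_19 and 5.45 in J163_18. The log2 ratio of Ikbkg in the T-type was 1.48 to the S-type and -0.48 to NR, and the latter was 0.98 without J186_5. The part of Ikbkg reads in the G6pdx counts was not tested.

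Sod1 (chr16:90220754-90226329, plus strand), the copper and zinc superoxide dismutase of the cytosol, had normalized counts of 2853, 3691, 4951, 9886 and 10066 in NR and of 5254, 6141, 6598, 6603 and 7724 in the M-type. From 5424 the S-type ran through 10848 to 16821, and the T-type from 4445 through 11888 to 135646. The last value was that of J162_16 and made up 72.3% of the T-type sum. The log2 ratio of T-type to NR was 2.31 (95% counting interval 2.30 to 2.33) and 0.73 without J162_16. S-type to NR was 0.85, between 0.67 and 1.09 when any 1 cell was left out, and 0.47 without J150_3 and J151_5. The M-type level, 6464, lay close to that of NR, 6289.5, with a log2 ratio of 0.04.

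Sod2 (chr17:13006846-13040063, plus strand), the manganese enzyme of mitochondria, had a different order. Its levels were 2804 in the M-type, 2499.9 in the T-type, 1944 in NR and 1598 in the S-type, and 0 of the 4 comparisons reached 2-fold. J162_16, the highest cell for Sod1, was the lowest for Sod2 with 5 reads, and J161_9 held 55.0% of the T-type sum with 8253. Without J161_9 the log2 ratio of T-type to NR fell from 0.36 to -0.53.

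Prdx1 (chr4:116685544-116700822, plus strand), peroxiredoxin 1, reduces hydrogen peroxide with electrons from thioredoxin. The NR cells had 5284, 10566, 10877, 16737 and 22026 normalized counts and the M-type cells 6338, 9948, 10280.2, 12738 and 14958. S-type values lay from 5592 through 8767 to 38458 (J150_3), and the T-type from 9939 through 15937 to 103123 (J162_16). The T-type cells other than J162_16 lay between 9939 and 23669.5, inside the range of the S-type. The T-type level, 30142, was 2.30-fold that of NR, a log2 ratio of 1.20, and without J162_16 the log2 ratio was 0.25. The ratio of T-type to S-type was 1.00, 0.05 without J162_16 and 1.98 without J150_3 and J151_5, and S-type to NR turned from 0.20 to -0.78 without the latter. In CPM the highest cell was not J162_16 (2263) but the S-type cell J150_3 (2697).

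Gpx1 (chr9:108338903-108340343, plus strand) and Gpx4 (chr10:80047166-80056439, plus strand) are glutathione peroxidases with selenocysteine in their active sites, and Gpx4 reduces lipid hydroperoxides in membranes. For Gpx1, NR cells had 849, 1860.3, 1935, 2530.3 and 4099 normalized counts, and the T-type ran from 867 through 3342 to 15714 (J162_16). The log2 ratio was 1.11, and 0.26 without J162_16. Without J150_3 and J151_5, the Gpx1 ratio of S-type to NR went from 0.22 to -0.28. Gpx4 was the steadiest of the 10 genes, with a coefficient of variation of 55.9% over the 22 cells. Its S-type cells lay between 426 and 752, and the levels of the 4 types ran from 609.97 (S-type) to 793 (M-type). The log2 ratios of the 4 comparisons were between -0.15 and 0.36. Over the alternatives they ran from -0.40 to 0.68, and in each comparison the sign turned in some of them.

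Gclc (chr9:77754535-77794485, plus strand) and Gclm (chr3:122245557-122270732, plus strand) encode the catalytic and the modifier subunit of glutamate-cysteine ligase, the rate-limiting enzyme of glutathione synthesis. For Gclc, NR cells had 1175, 1429, 1538, 2598.5 and 4405 normalized counts and M-type cells 1523, 1924, 1972, 2564.5 and 4261. The S-type ran from 233 through 2026.5 to 5469, and the T-type from 21.8 through 1233 to 18229. T-type cells thus held both the lowest value (J162_16, 6 reads) and the highest (J163_18). The log2 ratio of T-type to NR was 0.96, and -0.52 without J163_18.

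For Gclm, NR cells had 1146, 1774, 2116, 2124 and 3625 normalized counts and M-type cells 615, 1276, 2725, 4200.1 and 4871. The S-type ran from 1176 through 3738 to 12237 (J150_3), and the T-type from 921 through 1744 to 15666 (J161_9). The S-type and T-type levels, 4566 and 4669, differed by a log2 ratio of 0.03, and both were at least 2-fold above NR (log2 ratios 1.08 and 1.11). Without J150_3 the first was 0.49, and without J150_3 and J151_5 together 0.23. Without J161_9 the second was 0.20, and with medians of the cells in place of means it was -0.28. Exons of Gclm share 296 of 6291 bases with Gm17494 on the opposite strand and 244 with the pseudogene Gm6061.

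Nfe2l2 (chr2:75675513-75704641, minus strand), the gene of Nrf2 itself, had its highest level in the T-type (5868) and then in NR (4819), above the M-type (3402) and the S-type (3225). The NR cells had 2394, 2468, 3835, 5346 and 10054 normalized counts and the M-type cells 574, 2348, 2773, 3921 and 7396. The S-type ran from 1253 through 2678 to 6550.0 and the T-type from 2169.7 through 5365 to 10006. The neighbours in this order differed by less than the SD over the cells of a type, which was between 1993 and 3421. The log2 ratio of T-type to S-type was 0.86, and it stayed between 0.64 and 1.20 when any 1 cell was left out. No comparison of the means reached 2-fold. Without J150_3 and J151_5 that ratio was 1.50, and S-type to NR moved from -0.58 to -1.22.

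**Figure D3:**
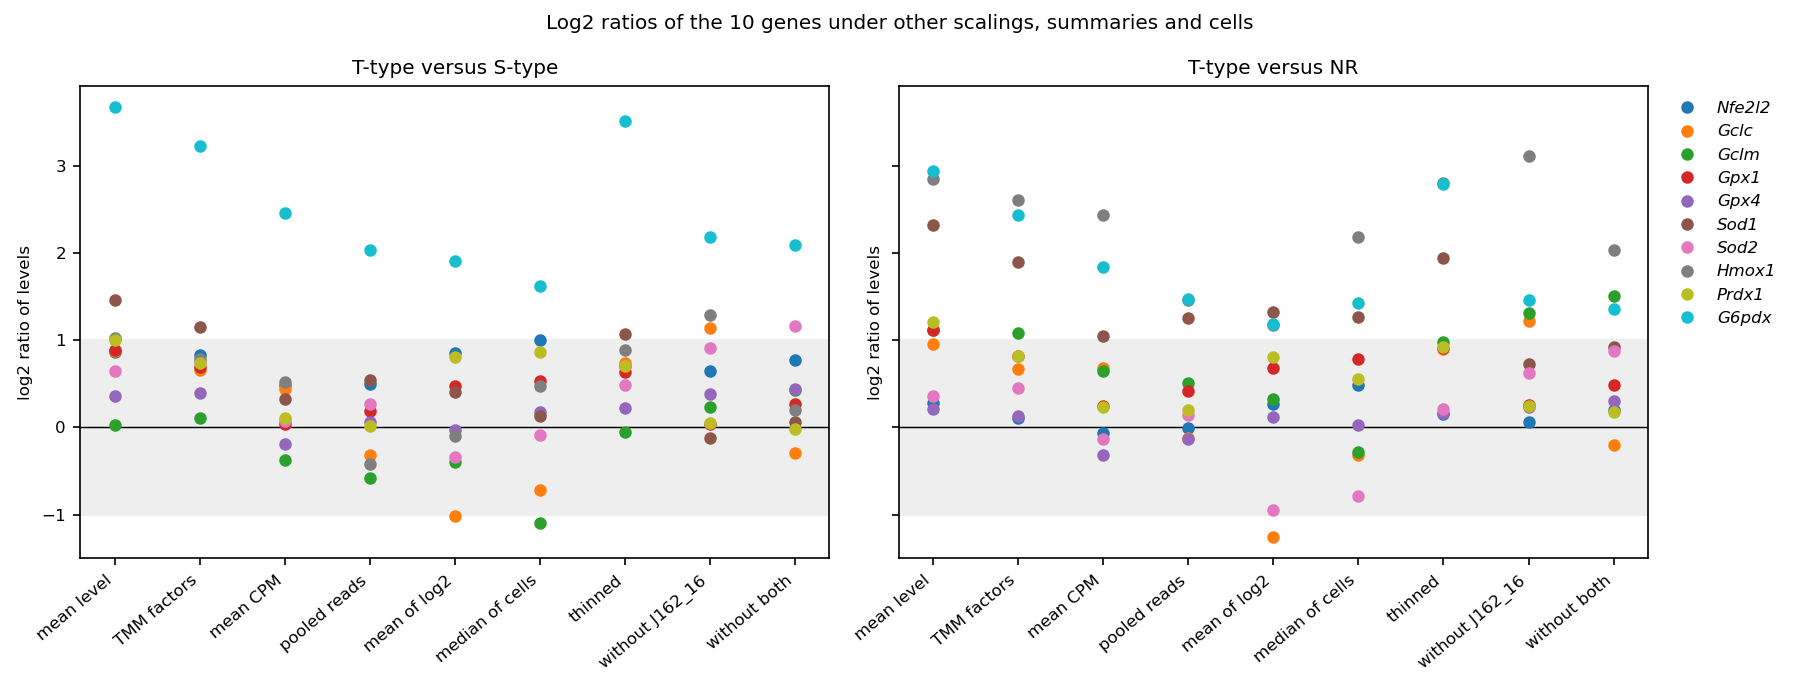
Log2 ratio of the levels (y axis) of the 10 genes with the T-type set against the S-type (left) and NR (right), one colour per gene, under 9 ways of scaling, summarising or choosing the cells (x axis); ratios under 2-fold are shaded. G6pdx stays above the band in every column of both panels, from 1.62 to 3.67 against the S-type, and Hmox1 in every column against NR, while Gclc and Gclm fall below 0 in some columns.

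Some enzymes work in pairs, and a ratio of reads within a cell does not depend on the scaling between cells. It does depend on transcript length, so it is compared between cells only. The log2 ratio of Gclm reads to Gclc reads (1 added to each) ran from -2.996 in T-type cell J163_18 to 5.71 in S-type cell J150_3. In NR it stayed between -1.06 and 0.85, in the M-type between -1.68 and 1.34, and the 6 T-type cells all lay outside the range of these 10 cells, 4 above it and 2 below. Of the 6 S-type cells, 2 lay above it. This pattern was noticed after the values were seen, and how often other pairs of genes show it was not counted. In J162_16 the ratio rests on 6 reads of Gclc. The ratio of Sod1 to Sod2 reads ran from 0.15 to 12.6, and that of Gpx1 to Gpx4 from 0.39 to 4.57 with medians of 1.73 to 1.93 in the 4 types.

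**Figure D4:**
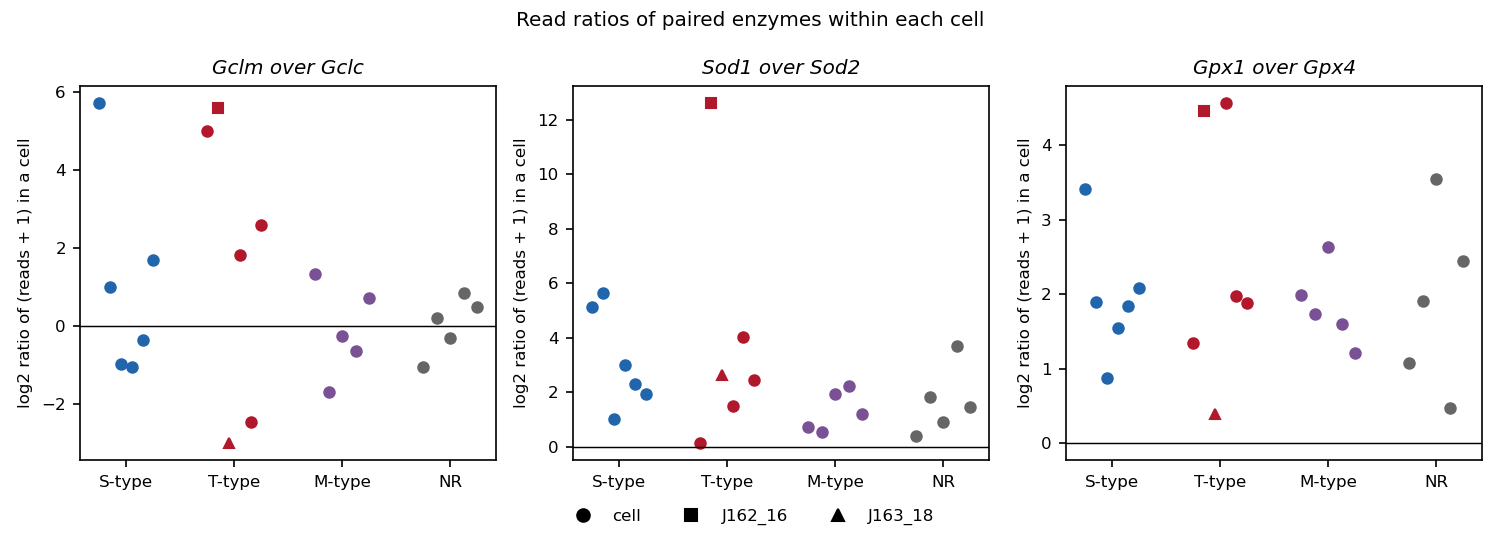
Log2 ratio of reads (1 added to each gene) within a cell (y axis) for Gclm over Gclc, Sod1 over Sod2 and Gpx1 over Gpx4, by response type; squares mark J162_16 and triangles J163_18. The Gclm over Gclc ratio spans -2.996 to 5.58 in the T-type and -1.06 to 0.85 in NR, and J162_16 lies at 12.6 for Sod1 over Sod2.

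The 10 genes did not vary together over the 22 cells. Over their 45 pairs, the median Spearman's rho of the normalized counts was 0.01, and over all pairs of genes whose mean level reached 100 it was 0.03. The highest values were those of Nfe2l2 with Prdx1 (0.70), Gpx1 with Gpx4 (0.57) and Gpx1 with Prdx1 (0.55), and the lowest that of Gclc with Gpx1 (-0.65). The 2 subunits of glutamate-cysteine ligase had a rho of 0.04. The points share libraries and size factors, and Prdx1 itself had a rho of -0.51 with the size factor. With other scalings the highest of the 45 values was lower, 0.62 with TMM factors and 0.52 under mean CPM. The medians there were 0.01 and 0.03. The part of the size factor in the value of a single pair was not tested. Sod1 had a rho of 0.52 with the share of reads on G2/M genes, and Gclm one of -0.50 with the astrocyte share. These and the value of Prdx1 were picked as the largest in size. They come from all values of the 10 genes with size factors, reads, genes with a read and shares of marker lists.

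**Figure D5:**
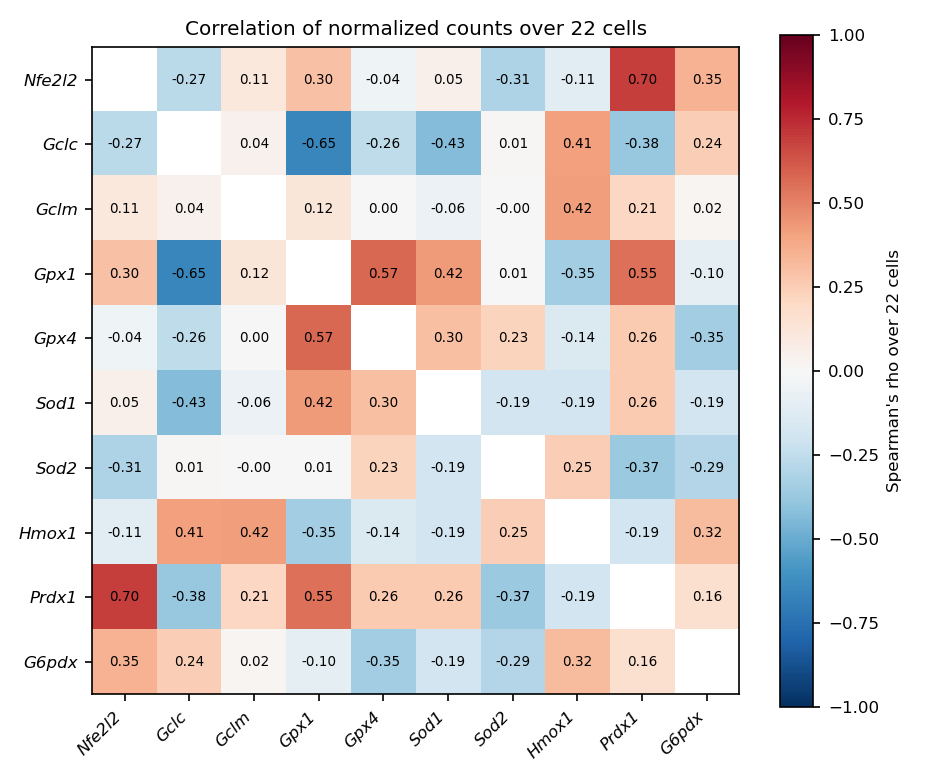
Spearman's rho of the normalized counts over 22 cells for each pair of the 10 genes, on a colour scale from -1 (blue) to 1 (red) with the value in each field. Nfe2l2 with Prdx1 is highest at 0.70, Gclc with Gpx1 is lowest at -0.65, and 25 of the 45 pairs lie above 0.

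Among 8368 other genes, read in 11 or more cells and with a mean level of 100 or more, those most like Prdx1 over the 22 cells were Skp1a (rho 0.82) and Sdcbp (0.81). For Sod1 they were Hint2 (0.79) and Tsn (0.76), for Nfe2l2 Timmdc1 (0.84) and Prdx1, for Gclm Stk40 and Arhgef18 (0.77 each), and for G6pdx Slc35f3 and Bcas3 (0.70 each). With so many genes compared over 22 cells, high values arise for any gene, and these are given as a description. The coefficient of variation over the cells was 109.7% in the median of the 10 genes and 129.6% in the median of the 8497 genes whose mean level reached 100. It ran from 55.9% for Gpx4 and 65.7% for Nfe2l2 to 257% for G6pdx.

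A wider list of 93 genes of the same pathways was read in the same way, and 83 of them passed the filter of a read in at least 5 cells. In T-type versus S-type, 34 of 83 were at least 2-fold higher, against 26.0% of all genes, and 14 lower, against 32.3%. The median log2 ratio was 0.70. Without J162_16, 29 were higher, against 22.9%, and 12 lower, against 32.8% (median 0.59). In T-type versus NR, 30 were higher, against 28.7%, and 13 lower, against 32.5% (median 0.42). Without J162_16, 25 were higher, against 25.9%, and 13 lower, against 32.4% (median 0.36). In S-type versus NR, 18 were higher, against 25.1%, and 18 lower, against 22.4%. In M-type versus NR, 15 were higher, against 19.8%, and 15 lower, against 28.1%. The same shares of all genes apply to the groups of this list that follow.

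Among NADPH sources, 7 of 14 genes were at least 2-fold higher in the T-type than in NR, against 28.7% of all genes. Lower was 1, against 32.5%. In T-type versus S-type, 7 were higher, against 26.0%, and 0 lower, against 32.3%. The 2 with the most reads were Me1, malic enzyme, with a log2 ratio of T-type to NR of 0.42, and Taldo1, transaldolase of the pentose phosphate pathway, with 3.12. Taldo1 ranged from 1421 to 104704 normalized counts in the T-type, and without J162_16 its ratio was 1.05. Of 22 glutathione peroxidases and transferases, 11 were higher and 5 lower in both T-type comparisons, beside the same shares of all genes. Gstm1, a cytosolic transferase, had a log2 ratio to NR of 1.10 (0.49 without J164_19) and Mgst1, a transferase of membranes, one of -1.21 (-0.92 to -1.91 with 1 cell left out). Mgst1 thus went against the direction of the 10 genes.

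Of 10 genes of Nrf2 control, 4 were higher and 1 lower in the T-type than in the S-type, and 3 and 0 against NR. The shares of all genes were 26.0% higher and 32.3% lower against the S-type, and 28.7% and 32.5% against NR. Cul3 and Rbx1 belong to the ubiquitin ligase that marks Nrf2 for degradation. Cul3 had a log2 ratio of T-type to S-type of 2.46 and to NR of 1.98, and when any 1 cell was left out the lowest values were 1.97 and 1.50. The cells still overlapped, since the T-type ran from 1059 through 5695 to 20678 normalized counts and NR from 71.4 to 4767. Rbx1 had ratios of 1.17 and 0.53. Keap1, of the same 10 genes, went the other way, with -1.97 to the S-type and -0.58 to NR. Its log2 ratio of S-type to NR was 1.39. Of 15 thioredoxin, peroxiredoxin and methionine sulfoxide reductase genes, 4 were higher and 2 lower against the S-type, and 3 and 3 against NR. The same shares of all genes stand beside these counts. Txn1, thioredoxin, the electron donor of Prdx1, had a log2 ratio to NR of 2.22, and 0.70 without J162_16. Prdx6, a peroxiredoxin that uses glutathione, had 0.34, and -0.57 without J162_16.

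Of 8 heme, iron and quinone genes, 3 were higher and 2 lower in the T-type than in NR, against 28.7% and 32.5% of all genes. Fth1 and Ftl1 are the chains of ferritin, the iron store, and have near-identical copies in the genome that can share reads. Fth1 had a log2 ratio of 0.15 to NR and 1.19 to the S-type, and without J162_16 these were -0.66 and 0.38. Ftl1 had 0.72 and 1.46, and without J162_16 0.22 and 0.96. Of 11 genes of glutathione supply and recycling, 3 were higher and 2 lower than in NR, against the same shares of all genes. Glrx3 had a log2 ratio of 1.26 (0.70 without J162_16) and Glrx5, a glutaredoxin of mitochondria, one of -0.97 (-1.51 without J165_23). Ggt7 had 0 reads in the 6 T-type cells and a read in each of the 6 S-type, 5 M-type and 5 NR cells. With 3 reads over the T-type as the floor, the NR level (60.4) was 97.04-fold and the S-type level (39.9) 64.1-fold that floor. These folds depend on the assumed floor and are not lower limits. NR cell J185_4 held 79.6% of the NR sum, and without it the log2 ratio of the T-type floor to NR went from -6.60 to -4.63. In the 4 comparisons, Ggt7 was the only gene of the wider list with a 2-fold ratio and no overlap of the cells. That was 1 of 83 in each T-type comparison, against 0.772% of all genes to the S-type and 0.977% to NR. T-type cells had a median of 9203.5 genes with a read, against 11355.5 in the S-type and 10944 in NR. The part of this in the absence of Ggt7 reads was not tested. Of Cat and Ccs, catalase and the copper chaperone of Sod1, neither reached 2-fold between the T-type and NR (0.31 and 0.97).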

How the data were processed

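Per the paper's methods, the authors amplified the RNA of a cell in 2 rounds as antisense RNA, made stranded libraries, trimmed adapters and bases under a Phred score of 20, and aligned with STAR to GRCm38. VERSE then gave raw counts of unique exonic reads, which were deposited without normalization. Versions and the strand setting of the counting are not given in the sources used here. Without molecular identifiers, reads copied during amplification all count, and intervals cover counting error only.

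The size factor of a cell was its median ratio over 3670 genes that had reads throughout (Python 3.11.15, NumPy 2.4.6, pandas 2.3.3). Comparisons used the 12719 genes read in 5 or more cells, which include all 10 described here. Where a type had no read, 3 reads over its cells stood in for 0. The 95% intervals of log2 ratios were exact binomial intervals of the read split (SciPy 1.17.1). Higher or lower means at least 2-fold. The alternatives were TMM factors (edgeR 4.0.16 under R 4.3.3), mean CPM, pooled reads, the mean of log2 values with a pseudocount of 1, thinning to the 2937786 reads of the smallest library, other filters, and leaving out cells. The named genes were the 10, the 2 of each group of the wider list with the most reads, genes of that list with a 2-fold ratio and no overlap, the 2 most correlated with a gene for G6pdx and the 4 genes with the most reads, and cells far from their type. Keap1 and genes without a read were added after the values were seen. Positions and lengths came from GENCODE vM21 and promoter windows from RefSeq. Figures were drawn with matplotlib 3.10.9, and the ratio step was tested on simulated data. The genes and lists were chosen with earlier results of these data known.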

Additional observations from a re-analysis of the deposited data

Results flagged for a closer look

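In 44 groups, the 4 types of the 10 genes and of their summed share of reads, the highest and the lowest cell were compared with their nearest neighbour by Dixon's gap test on log2(normalized count + 1), on the percent scale for the share. A cell stood far from the others in 4 groups, and chance alone gives such a cell in about 1 of 20 groups. For Hmox1 this was the lowest cell of each responding type: J151_5 of the S-type at 3.27 (8 reads), J162_16 of the T-type at 0 (0 reads) and J173_25 of the M-type at 1.26 (2 reads), with the next cells at 7.75, 7.85 and 8.70. For Prdx1 it was the highest T-type cell, J162_16, at 16.7 with the next at 14.5.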

How the results depend on the processing

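With 1 sample per type no p-value was available, and the counting intervals cover reads only. The 2-fold calls of Hmox1 against NR in the 3 responding types, and of G6pdx in the T-type against the S-type and NR, held under every alternative run. No alternative left out the 3 T-type cells high for G6pdx together. The counts that follow stand without the share of all genes under the same alternative, and all genes move as well. In T-type versus S-type, the share at least 2-fold higher went from 26.0% to 22.9% without J162_16. Under mean CPM the median log2 ratio over all genes went from -0.07 to -0.45. The counts alone therefore do not separate a change in these genes from a shift of all genes. Of the 10 genes, the number at least 2-fold higher in T-type versus S-type went from 4 to 2 (TMM factors, thinned cells, medians of the cells, without J162_16 and J163_18) or 1 (mean CPM, pooled reads, mean of log2 values), and the number lower from 0 to 1 (mean of log2 values, medians). In T-type versus NR, 6 higher became 3 under mean CPM, pooled reads, the mean of log2 values, thinning, medians and without both cells, and 0 lower became 1 under the mean of log2 values. In S-type versus NR, 2 higher became 1 under TMM factors, the mean of log2 values and without J150_3 and J151_5, where 0 lower became 1. With 1 cell left out, the numbers higher were 2 to 6, 4 to 7, 1 to 3 and 1 to 1 in T-type versus S-type, T-type versus NR, S-type versus NR and M-type versus NR, and those lower were 0 to 0, 0 to 0, 0 to 0 and 0 to 1. The single cells that mattered were J155_9 and J156_16 for the 2, J150_3 and J185_4 for the 1, and J175_18 for the 1 gene lower in M-type versus NR. For the wider list, T-type versus S-type went from 34 higher to 20 (mean CPM, pooled reads) or 14 (mean of log2 values, medians), and from 14 lower to 25 (mean of log2 values), 24 (medians) or 7 (mean level of at least 100). T-type versus NR went from 30 higher to 16 (mean of log2 values) or 15 (medians), and from 13 lower to 24, 22 (medians) or 5 (mean level of at least 100). S-type versus NR went from 18 lower to 11 (mean level of at least 100, medians). M-type versus NR went from 15 higher to 23 (mean of log2 values) or 8 (mean level of at least 100), and from 15 lower to 8 or 7. With 1 cell left out, the wider list had 29 to 38, 25 to 37, 14 to 22 and 15 to 22 higher and 12 to 19, 11 to 17, 13 to 22 and 13 to 17 lower, in the same order of comparisons. The sign of a called log2 ratio turned in 6 cases: Gclm in T-type versus NR with medians (-0.28), Sod1 in T-type versus S-type without J162_16 (-0.13, up to 1.69 without another cell), Hmox1 in T-type versus S-type with pooled reads (-0.42), the mean of log2 values (-0.10) and without J163_18 (-0.12, up to 1.44 without another cell), and Prdx1 in T-type versus S-type without J162_16 and J163_18 (-0.022). The cause of these changes was not tested. The alternatives with medians and without J162_16 and J163_18 were chosen after seeing the data. No paired analysis was possible because replicate numbers were given in order of deposit and pair no cells.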

Other observations

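Of the 93 genes of the wider list, 4 had 0 reads in all 22 cells: Ggt5, a relative of the gamma-glutamyl transferases, Gpx2, the glutathione peroxidase known from the gut, Gpx6, known from the olfactory epithelium, and Gstp2, a transferase next to its near-identical relative Gstp1. Counting of unique reads only can leave a gene with a near-identical copy without reads.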
